A study of Mus musculus with 4 samples.

Results

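The 9 genes described here encode proteins that set up apicobasal polarity in epithelial cells: Crb3 of the Crumbs complex, Pard3, Pard6b and Prkci of the Par complex, Scrib, Dlg1, Llgl1 and Llgl2 of the Scribble module, and Lsr, which encodes angulin-1 of tricellular junctions. They were chosen by symbol, with earlier results of these data known, and each matched 1 Ensembl gene among the 21971 genes of the count table. 4 libraries of NMuMG cells, a mouse mammary gland epithelial cell line that turns mesenchymal in shape and expression when given TGFβ, were sequenced from rRNA-depleted total RNA. The groups were Vp16-TRF1ΔN cells after 24 h of TGFβ at 5 ng/ml, Vp16-TRF1ΔN cells at 0 h, TRF1ΔN cells after 24 h of TGFβ at 5 ng/ml and TRF1ΔN cells at 0 h, with 1 library each and no replicates. Both lines were thus made to overexpress stably a mutated human TRF1, a telomere-binding protein. In the Vp16-TRF1ΔN cells it was fused to the Vp16 transcription activation domain, which the submitters used to raise telomeric TERRA-like noncoding RNA. The counts of the construct, given below, were much lower in Vp16-TRF1ΔN than in TRF1ΔN cells for the row named TRF1DN. Unmodified NMuMG cells and cells kept for 24 h without TGFβ were not analysed here, so time in culture and TGFβ cannot be told apart. Whether each line is 1 clone or a pool is not stated. The question was how the fusion alters the expression changes of the epithelial-to-mesenchymal transition.

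Apicobasal polarity rests on groups of proteins that exclude one another from parts of the cell cortex. The Crumbs and Par complexes define the apical domain and the junction below it, with atypical protein kinase C as the active enzyme, while the Scribble module holds the basolateral domain and is displaced from the apical side by phosphorylation of Lgl proteins. In human carcinoma cells, ZEB1, a transcription factor of the epithelial-to-mesenchymal transition that binds E-box sequences, is known to repress polarity genes such as CRB3 and LLGL2.

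The libraries held 35423556 to 46001039 counts. The construct row named VP16 had 27 and 15 counts in the Vp16-TRF1ΔN libraries at 24 h and 0 h, against 1 and 0 counts in the TRF1ΔN libraries. The row named TRF1DN had 159 and 123 counts in the Vp16-TRF1ΔN libraries at 24 h and 0 h, against 7798 and 1863 counts in the TRF1ΔN libraries. The lines thus also differed in this row, and in TRF1ΔN cells it was much higher after TGFβ than at 0 h. Its part in the differences between the lines and in the TGFβ responses was not tested. Of the 5 epithelial markers, Krt8, Krt18, Krt19 and Cdh1 were high in every library, whereas Epcam had counts in every library but at most 18. Krt8, Krt18, Krt19 and Cdh1 moved with the treatment. Epcam had 4 and 4 counts in Vp16-TRF1ΔN cells at 24 h and 0 h, and 11 and 18 in TRF1ΔN cells. Krt19 stood at 270 and 1648 CPM (counts relative to the scaled library size) in Vp16-TRF1ΔN cells at 24 h and 0 h, and at 82.7 and 1565 CPM in TRF1ΔN cells. Cdh1, which encodes E-cadherin, stood at 166 and 368 CPM in Vp16-TRF1ΔN cells at 24 h and 0 h, and at 107 and 366 CPM in TRF1ΔN cells. Krt19 and Cdh1 thus fell (log2 changes -3.42 ± 0.44 and -1.46 ± 0.16, SE), while Krt8 (0.30 ± 0.07) and Krt18 (0.56 ± 0.07) rose, in the test described below. Mitochondrially encoded RNA took 15.7% and 11.4% of the counts in Vp16-TRF1ΔN cells at 24 h and 0 h, and 13.3% and 10.2% in TRF1ΔN cells. Its share was thus higher after treatment in each line, and higher in Vp16-TRF1ΔN cells at each time. A list of 6 fibroblast markers, 4 of them analysed, summed to 12.0 and 1.90 CPM in Vp16-TRF1ΔN cells at 24 h and 0 h, and to 21.6 and 1.36 CPM in TRF1ΔN cells. Col1a1 and Pdgfra made up most of these sums at 24 h, and Dcn had at most 2 counts. The 5 immune cell markers analysed of 8 summed to 3.67 to 5.44 CPM, the 4 endothelial markers of 6 to 0.189 to 1.38 CPM and the 2 adipocyte markers of 5 to 15.01 to 22.6 CPM, the last almost all from Pparg. The immune and endothelial sums were highest in treated TRF1ΔN cells, where Csf1r and Cdh5 were highest. The defining genes Ptprc, Pecam1 and Adipoq had at most 7, 3 and 1 counts in a library. The part of the mitochondrial share and of these markers in the results below was not tested.

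Polarity genes went both ways after TGFβ. Llgl2 and Crb3 fell the most, to 24.0% and 24.1% of the 0 h level on average over the lines. Lsr, Pard6b and Scrib also fell, and Llgl1 and Dlg1 rose. Pard3 and Prkci did not pass the test. All 9 genes passed the filter on low counts, with at least 72 counts in every library. The TGFβ response was tested in an additive edgeR quasi-likelihood fit over the 4 libraries, with line and TGFβ as its factors, so that the 1 residual degree of freedom is the difference between the responses of the lines. With a Benjamini-Hochberg adjusted p under 0.05, 5 of the 9 genes were called lower and 2 higher. Over all 14305 genes tested the same rule called 25.4% lower and 23.1% higher, together 48.5%. Being called is therefore common in these data. Crb3 and Llgl2 were also at least 2-fold lower, as were 10.4% of all genes, and none of the 9 was called at least 2-fold higher, as were 8.61% of all genes. The median log2 change of the 9 genes was -0.51, against -0.01 over all genes tested. In bulk RNA, fewer cells that express a gene and less of its RNA per cell cannot be told apart.

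**Figure D1:**
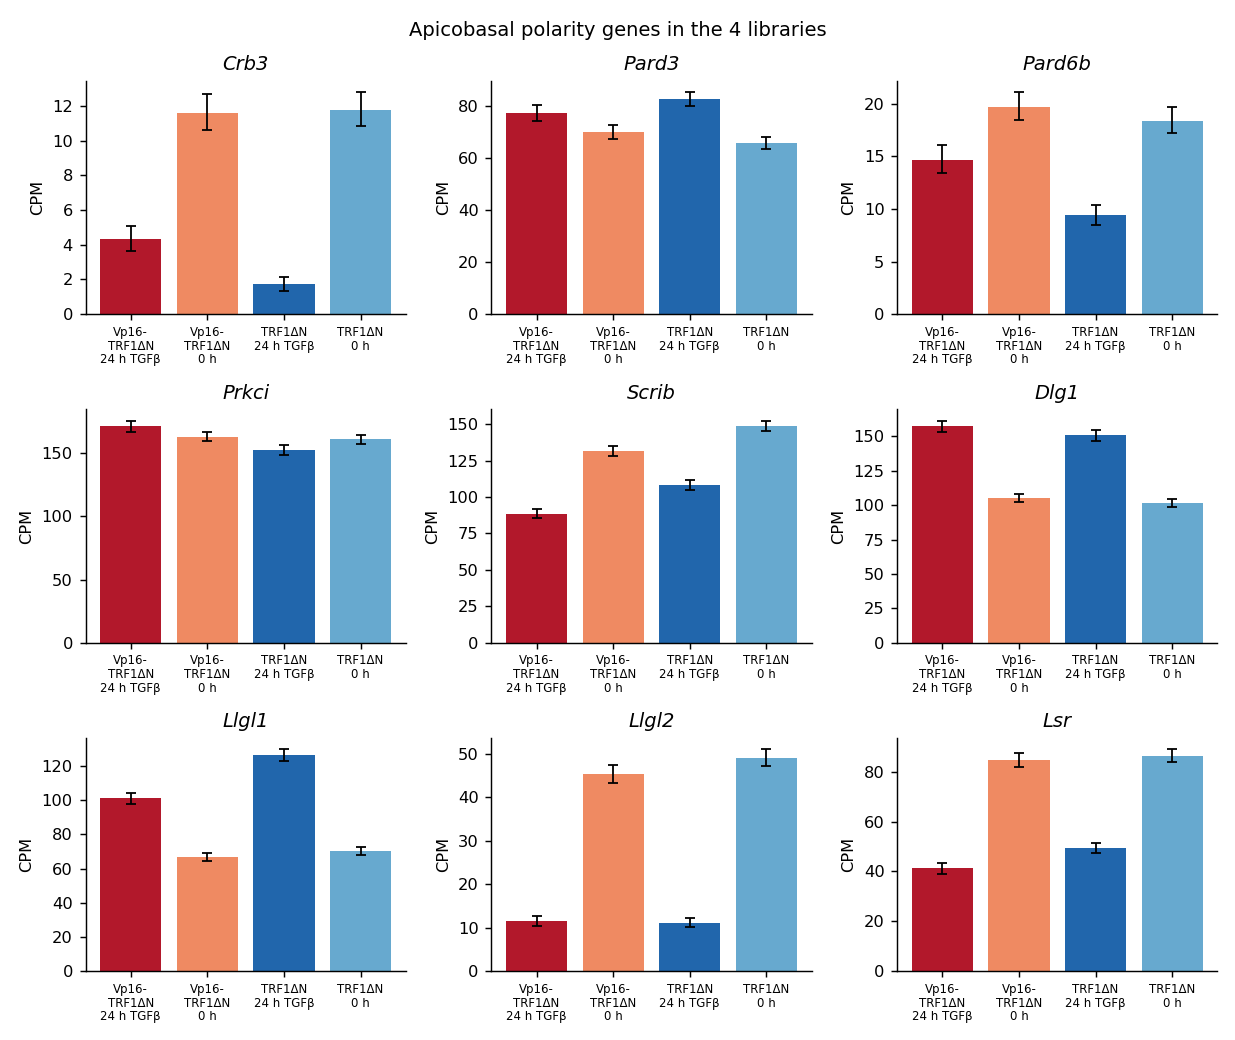
Level of each of the 9 genes in CPM of the scaled library (vertical axes, each starting at 0) in the 4 libraries, with 24 h of TGFβ left of 0 h within each line. Bars are single libraries and error bars are exact 95% Poisson intervals. Crb3 stood at 4.32 and 11.6 CPM in Vp16-TRF1ΔN cells at 24 h and 0 h and at 1.71 and 11.8 CPM in TRF1ΔN cells, while Prkci stayed between 153 and 171 CPM.

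Crb3, on chromosome 17 (chr17:57059105-57065918, plus strand, GRCm38), encodes the small transmembrane Crumbs protein of most epithelia, which recruits the scaffold Pals1 to the apical membrane. It stood at 4.32 CPM (148 counts) in Vp16-TRF1ΔN cells after TGFβ and 11.6 CPM (500 counts) at 0 h. In TRF1ΔN cells it stood at 1.71 CPM (72 counts, exact 95% Poisson interval 1.34 to 2.15 CPM) after TGFβ and 11.8 CPM (561 counts) at 0 h. Both treated libraries lay below both untreated ones, the untreated levels of the lines were within counting error of each other, and the treated Vp16-TRF1ΔN library lay above the treated TRF1ΔN library. Averaged over the lines, Crb3 had a log2 change of -2.05 ± 0.35 (SE; adjusted p = 0.0112 by edgeR's quasi-likelihood test). It fell the most of the 9 genes in TRF1ΔN cells, and its SE was the widest of the 9.

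The Par complex genes were less uniform. Pard6b (chr2:168081004-168101203, plus strand) encodes the adaptor that binds Cdc42 and atypical protein kinase C. It stood at 14.7 CPM and 19.7 CPM in Vp16-TRF1ΔN cells at 24 h and 0 h, and at 9.41 CPM and 18.4 CPM in TRF1ΔN cells, so both treated libraries were lower and the fall was larger in TRF1ΔN cells. The average log2 change was -0.69 ± 0.16 (adjusted p = 0.0243 by edgeR's quasi-likelihood test), and this call was lost with TGFβ as the only term of the fit (log2 change -0.67, adjusted p = 0.070).

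Pard3 (chr8:127063893-127612286, plus strand) encodes the scaffold that brings the complex to junctions. It stood at 77.3 CPM and 69.9 CPM in Vp16-TRF1ΔN cells at 24 h and 0 h, and at 82.5 CPM and 65.8 CPM in TRF1ΔN cells. The treated libraries were the higher ones in both lines, yet the average log2 change of 0.24 ± 0.08 did not pass the test (adjusted p = 0.0633, edgeR quasi-likelihood test). Prkci (chr3:30995747-31052959, plus strand), which encodes the kinase itself, varied least of the 9 genes, with 171 CPM and 163 CPM in Vp16-TRF1ΔN cells at 24 h and 0 h, against 153 CPM and 161 CPM in TRF1ΔN cells. The treated library was the higher one in Vp16-TRF1ΔN cells and the lower one in TRF1ΔN cells. Its average log2 change was -0.003 ± 0.07 (adjusted p = 0.977).

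Within the Scribble module the paralogs Llgl1 and Llgl2 went in opposite directions. Both encode Lgl proteins, which keep the apical kinase off the basolateral cortex. Llgl2 (chr11:115824049-115855780, plus strand) stood at 11.5 CPM and 45.3 CPM in Vp16-TRF1ΔN cells at 24 h and 0 h, and at 11.1 CPM and 49.0 CPM in TRF1ΔN cells. Its treated libraries were alike in the lines, and its log2 change of -2.06 ± 0.09 (adjusted p = 0.000858, edgeR quasi-likelihood test) had a much smaller SE than that of Crb3. Llgl1 (chr11:60699723-60714186, plus strand) stood at 101 CPM and 66.9 CPM in Vp16-TRF1ΔN cells at 24 h and 0 h, and at 127 CPM and 70.5 CPM in TRF1ΔN cells. Both treated libraries were above both untreated ones, with a log2 change of 0.72 ± 0.09 (adjusted p = 0.00469). Exons of Llgl1 overlap those of Flii on the other strand over 64 bases, Flii had 39101 counts in all 4 libraries together against 15035 for Llgl1, and without a stated strand setting reads there cannot be assigned.

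Scaling between libraries does not enter a ratio of 2 genes within a library. Per exon length, the ratio of Llgl2 to Llgl1 was 0.114 (exact 95% binomial interval 0.103 to 0.127) and 0.679 (0.641 to 0.719) in Vp16-TRF1ΔN cells at 24 h and 0 h. In TRF1ΔN cells it was 0.0882 (0.0800 to 0.0969) and 0.698 (0.662 to 0.736). Llgl1 was thus the more abundant paralog per length in all 4 libraries, and the gap was wider in both treated ones. The ratio of Crb3 to Llgl1, computed the same way, was 0.133 (0.112 to 0.157) and 0.539 (0.489 to 0.593) in Vp16-TRF1ΔN cells at 24 h and 0 h. In TRF1ΔN cells this ratio was 0.0420 (0.0328 to 0.0530) and 0.519 (0.474 to 0.568). Since Llgl1 itself rose with TGFβ, both ratios fell by more than Llgl2 or Crb3 alone.

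**Figure D2:**
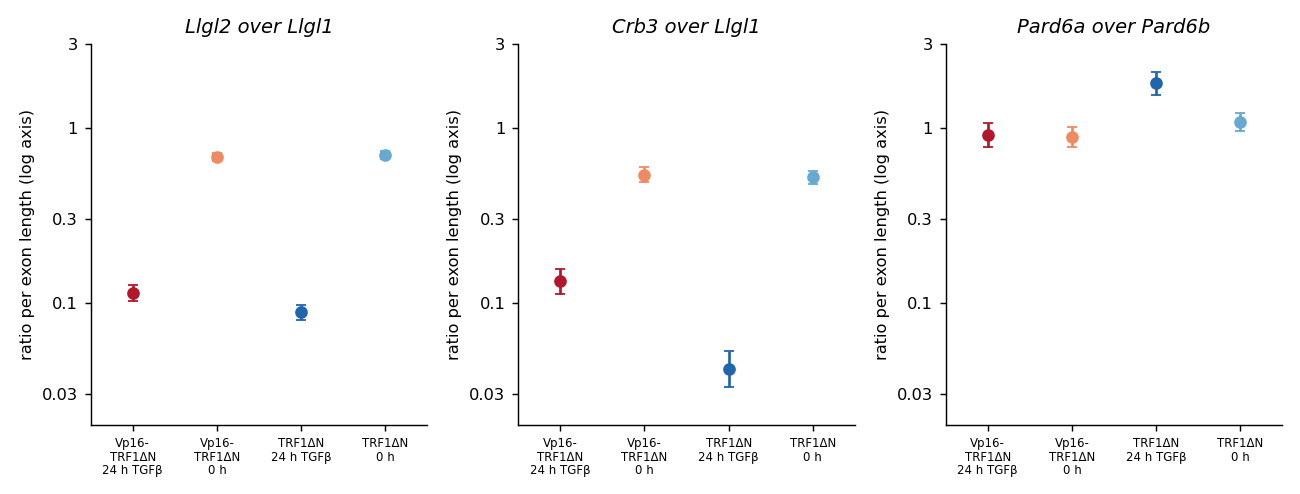
Ratios of gene pairs within each library, per exon length, on a logarithmic vertical axis, with exact 95% binomial intervals and 24 h of TGFβ left of 0 h within each line. Llgl2 over Llgl1 was 0.114 and 0.679 in Vp16-TRF1ΔN cells and 0.0882 and 0.698 in TRF1ΔN cells, and Pard6a over Pard6b was highest in treated TRF1ΔN cells at 1.79.

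The other members of the Scribble module moved less. Scrib (chr15:76047158-76069784, minus strand), the scaffold that names the module, stood at 88.7 CPM and 131 CPM in Vp16-TRF1ΔN cells at 24 h and 0 h, and at 108 CPM and 149 CPM in TRF1ΔN cells. It was lower in the treated library of each line and lower in Vp16-TRF1ΔN cells at each time, with a TGFβ log2 change of -0.51 ± 0.07 (adjusted p = 0.00554, edgeR quasi-likelihood test). Dlg1 (chr16:31663443-31875129, plus strand), which encodes a PDZ-domain scaffold of the lateral membrane, stood at 157 CPM and 105 CPM in Vp16-TRF1ΔN cells at 24 h and 0 h, and at 151 CPM and 102 CPM in TRF1ΔN cells. It rose by nearly the same amount in both lines, with a log2 change of 0.57 ± 0.06 (adjusted p = 0.00364).

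Lsr (chr7:30957770-30973464, minus strand) encodes angulin-1, a lipoprotein-binding membrane protein that marks the corners where 3 cells meet and recruits tricellulin there. It stood at 41.3 CPM and 84.6 CPM in Vp16-TRF1ΔN cells at 24 h and 0 h, and at 49.3 CPM and 86.5 CPM in TRF1ΔN cells. Both treated libraries were lower, with a log2 change of -0.92 ± 0.08 (adjusted p = 0.00267, edgeR quasi-likelihood test). The antisense gene Gm4673 overlaps 946 of the 2172 exon bases of Lsr. It had 366 counts in all 4 libraries together, against 11257 for Lsr. Without a stated strand setting reads in this overlap cannot be assigned either, so the level of Lsr may be affected.

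Within each line the response was described without a test, as a log2 ratio with a prior count of 2 and an exact 95% counting interval, and a gene was counted when it was at least 2-fold changed, averaged at least 1 CPM and had an interval that excluded a ratio of 1. In Vp16-TRF1ΔN cells 3 of the 9 genes were counted as lower, Crb3, Llgl2 and Lsr, as were 9.09% of 11777 genes, and 0 as higher, as were 6.92%. In TRF1ΔN cells 2 were counted as lower, Crb3 and Llgl2, against 10.9% of all genes, and 0 as higher, against 8.4%. Lsr stood at -1.03 (-1.12 to -0.95) in Vp16-TRF1ΔN cells and -0.81 (-0.89 to -0.73) in TRF1ΔN cells, on the 2 sides of the 2-fold line. Crb3 stood at -1.41 (-1.70 to -1.16) in Vp16-TRF1ΔN cells and -2.75 (-3.16 to -2.43) in TRF1ΔN cells, which left 37.5% and 14.8% of the 0 h level. These intervals cover counting error only.

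**Figure D3:**
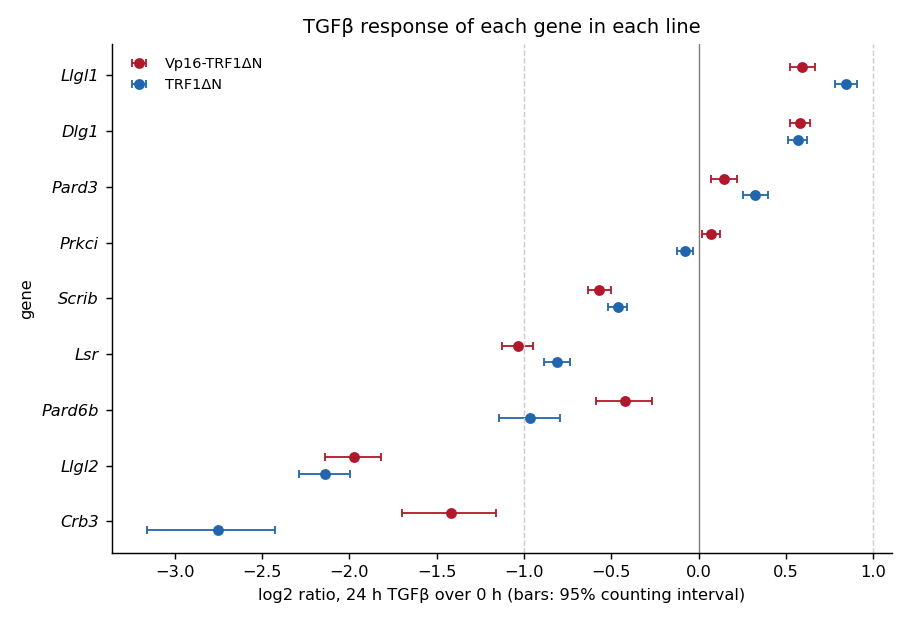
TGFβ response of the 9 genes as the log2 ratio of 24 h over 0 h (horizontal axis) in Vp16-TRF1ΔN cells (red, upper point of each pair) and TRF1ΔN cells (blue). Points are ratios of 2 libraries, bars are 95% counting intervals, and dashed lines mark 2-fold. The points of Dlg1 lie together at 0.58 and 0.57, and those of Crb3 apart at -1.41 and -2.75.

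Each library was also left out in turn, with TGFβ as the only term and 1 residual degree of freedom. The time with 1 library left is then assumed to vary like the other time, whose 2 libraries alone give the spread. Leaving out the 0 h library of either line, so that the spread came from the 24 h libraries, left 2 genes called lower, Llgl2 and Lsr, and 0 called higher. The adjusted p of Crb3, Llgl1, Pard6b, Scrib and Dlg1 then lay between 0.0596 and 0.218 (edgeR quasi-likelihood test), with signs as before and the log2 change of Crb3 at -1.95 and -1.97. Calls over all genes dropped as well, to 1013 higher and 1228 lower without the TRF1ΔN library at 0 h and to 1173 higher and 1352 lower without the Vp16-TRF1ΔN one, against 2850 higher and 2994 lower with all 4 libraries and the same single term. Leaving out a 24 h library kept all 7 calls but moved the values of Crb3 and Pard6b. Crb3 had a log2 change of -2.78 without the Vp16-TRF1ΔN library at 24 h and -1.45 without the TRF1ΔN library at 24 h, and Pard6b had -1.02 and -0.39 in the same fits. Without the Vp16-TRF1ΔN library at 24 h Pard3 was called higher as well (log2 change 0.28, adjusted p = 0.0386).

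Promoter sequence was set beside these responses because repressors of the Snail and Zeb families bind the E-box CACCTG. All 4 genes of these repressors that were tested, Snai1, Snai2, Zeb1 and Zeb2, rose with TGFβ. Snai1 stood at 4.87 CPM and 0.696 CPM in Vp16-TRF1ΔN cells at 24 h and 0 h, and at 12.6 CPM and 0.588 CPM in TRF1ΔN cells. Zeb1 stood at 139 CPM and 39.0 CPM in Vp16-TRF1ΔN cells at 24 h and 0 h, and at 157 CPM and 37.6 CPM in TRF1ΔN cells. Both were high in the treated libraries, and Snai1 was higher in treated TRF1ΔN than in treated Vp16-TRF1ΔN cells. Their part in the results was not tested. RefSeq windows from 250 bases before to 50 bases after the start of transcription (GRCm38.p6, the same coordinates as mm10) were found for 7 of the 9 genes, and Llgl2 and Scrib had none. The motif was searched on both strands, as CACCTG or CAGGTG, with no overlap with another motif since no other was searched. It was present in 20.2% of 32851 windows, at least 2 times in 2.88% and at least 4 times in 0.0548%. The windows of Crb3 and Lsr each held 4 matches, that of Pard6b held 2, and those of Llgl1 and Prkci held 0. Of 2 windows of Pard3 the one further along the gene held 3, and of 4 windows of Dlg1 one held 1. The windows of Dlg1, which also rose and held a match, and of Pard3 and Prkci are not printed, so the printed ones do not stand for all. The windows of 3 genes that fell and of 1 that rose are given in the direction of transcription, with the E-boxes in capitals.
Crb3, chr17:57061951-57062250, plus strand: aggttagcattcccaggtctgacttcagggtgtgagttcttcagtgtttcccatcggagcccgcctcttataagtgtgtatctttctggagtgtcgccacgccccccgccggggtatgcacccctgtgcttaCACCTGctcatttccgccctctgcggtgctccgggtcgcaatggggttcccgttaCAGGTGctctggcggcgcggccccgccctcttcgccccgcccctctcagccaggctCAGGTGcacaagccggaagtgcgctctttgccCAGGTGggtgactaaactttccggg
Lsr, chr7:30973420-30973719, minus strand: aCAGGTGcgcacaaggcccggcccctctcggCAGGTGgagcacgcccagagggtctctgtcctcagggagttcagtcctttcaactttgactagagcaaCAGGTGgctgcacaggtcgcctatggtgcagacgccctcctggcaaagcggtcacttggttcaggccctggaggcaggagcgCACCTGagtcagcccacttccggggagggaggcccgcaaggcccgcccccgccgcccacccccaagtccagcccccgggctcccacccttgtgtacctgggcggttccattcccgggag
Pard6b, chr2:168080754-168081053, plus strand: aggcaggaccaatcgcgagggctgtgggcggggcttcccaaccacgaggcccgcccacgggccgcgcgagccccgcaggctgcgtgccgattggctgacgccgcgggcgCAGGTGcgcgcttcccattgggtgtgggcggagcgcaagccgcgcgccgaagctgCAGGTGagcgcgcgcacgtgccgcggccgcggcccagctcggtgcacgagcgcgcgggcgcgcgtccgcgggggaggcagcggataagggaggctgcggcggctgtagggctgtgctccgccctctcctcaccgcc
Llgl1, chr11:60699450-60699749, plus strand: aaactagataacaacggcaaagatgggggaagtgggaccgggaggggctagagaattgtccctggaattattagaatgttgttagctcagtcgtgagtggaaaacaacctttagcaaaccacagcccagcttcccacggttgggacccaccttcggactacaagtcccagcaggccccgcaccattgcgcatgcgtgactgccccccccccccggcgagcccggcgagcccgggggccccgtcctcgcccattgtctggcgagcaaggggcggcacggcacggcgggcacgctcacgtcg
Counted from the start of transcription, the first bases of the Crb3 matches lay at -118, -63, -7 and 26, those of Lsr at -249, -219, -151 and -69, and those of Pard6b at -141 and -86. The second RefSeq window of Crb3 starts 30 bases further on and holds the same 4 matches. A match is a run of letters, and binding was not measured here.

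The lines were compared next, on average over both times in the same additive fit. None of the 9 genes was called, and neither was any of the 14305 genes tested (0%, edgeR quasi-likelihood test with Benjamini-Hochberg adjustment). At an unadjusted p under 0.05 in edgeR's test stood 12.4% of all genes and 1 of the 9, Scrib. Its log2 difference was -0.23 ± 0.07 (adjusted p = 0.399 by edgeR's quasi-likelihood test). DESeq2's Wald test called 12 genes higher and 34 lower, and 0 of the 9. Crb3 had the largest average difference of the 9 at 0.51 ± 0.34 (adjusted p = 0.528), followed by Pard6b at 0.36 ± 0.16 (adjusted p = 0.415).

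Described by time, the lines were close before TGFβ. At 0 h none of the 9 genes was counted as 2-fold different, where 0.178% of 11777 genes were higher and 0.416% lower in Vp16-TRF1ΔN cells, and their log2 ratios lay between -0.18 for Scrib and 0.10 for Pard6b. After 24 h of TGFβ, 1 of the 9, Crb3, was counted as higher in Vp16-TRF1ΔN cells (1.31, interval 0.92 to 1.76), as were 2.11% of all genes, and 0 as lower, as were 1.18%. Pard6b was next at 0.64 (0.45 to 0.84), and Llgl1 was lowest at -0.32 (-0.39 to -0.26). Llgl2, with a TGFβ response as large as that of Crb3 on average, was at 0.05 (-0.15 to 0.24) at 24 h, so the treated lines were within counting error of each other for this gene.

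**Figure D4:**
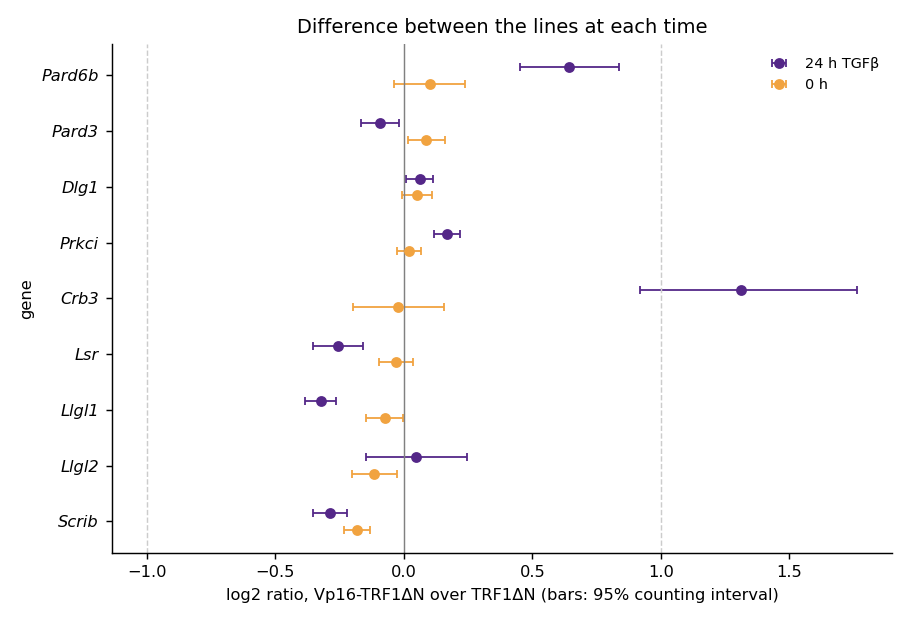
Difference between the lines as the log2 ratio of Vp16-TRF1ΔN over TRF1ΔN (horizontal axis) after 24 h of TGFβ (purple, upper point of each pair) and at 0 h (orange). Points are ratios of 2 libraries, bars are 95% counting intervals, and dashed lines mark 2-fold. The 0 h ratios lie between -0.18 and 0.10, and the 24 h ratio of Crb3 lies at 1.31.

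The difference of the TGFβ responses, Vp16-TRF1ΔN minus TRF1ΔN, has no residual degrees of freedom and was not tested. It was 1.34 for Crb3 on the log2 scale (Poisson interval 0.92 to 1.80), the 1 gene of the 9 counted as at least 2-fold higher, where 1.86% of 11777 genes were, and 0 of the 9 were counted as lower, against 0.9%. Pard6b had 0.54 (0.31 to 0.78). For both genes the positive sign stands for a smaller fall in Vp16-TRF1ΔN cells. Llgl1 had -0.25 (-0.34 to -0.16), which is a smaller rise, while Lsr had -0.22 (-0.34 to -0.11) and Scrib -0.11 (-0.19 to -0.02), which are larger falls in Vp16-TRF1ΔN cells. Dlg1 had 0.01 (-0.07 to 0.09) and Llgl2 0.16 (-0.05 to 0.38), both with intervals that include 0. Prkci had 0.15 (0.08 to 0.22) and Pard3 -0.18 (-0.28 to -0.08). The median over the 9 genes was 0.01, and over all 11777 genes 0.003, so the 9 genes did not share a direction.

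Partners and paralogs from lists of polarity genes, also chosen with earlier results of these data known, split as well. Of 47 further genes listed, 37 were tested, and 10 were called higher and 17 lower with TGFβ, with a median log2 change of -0.28 (edgeR quasi-likelihood test, against -0.01 over all genes tested). The same rule called 23.1% of all genes tested higher and 25.4% lower, and the counts by list below, which include the 9 genes, are to be read beside these shares.

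In the Crumbs complex 3 of 5 genes tested fell and 1 rose. The partners of Crb3 went separate ways: Patj, a scaffold with many PDZ domains, fell (-0.72 ± 0.08, adjusted p = 0.00375), as did the small adaptor Lin7c (-0.63 ± 0.08), whereas Pals1, the scaffold that joins them to Crb3, rose (0.70 ± 0.07, adjusted p = 0.00287). Crb2 took 2.81% to 15.6% of the per-length level of Crb2 and Crb3 together, and was not called.

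In the Par complex 2 of 7 fell and 1 rose. Besides Pard6b, Prkcz, which encodes the other atypical protein kinase C, fell (-0.47 ± 0.09, adjusted p = 0.0160 by edgeR's quasi-likelihood test), and Pard3b rose, at a low level (1.08 ± 0.26, 55 and 35 counts in Vp16-TRF1ΔN cells at 24 h and 0 h, and 51 and 25 in TRF1ΔN cells). Prkci kept 91.4% to 94.0% of the summed per-length level of both atypical kinases. Pard6a was not called, and per exon length its ratio to Pard6b was 0.908 and 0.884 in Vp16-TRF1ΔN cells at 24 h and 0 h, and 1.79 and 1.07 in TRF1ΔN cells.

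The Scribble module had 3 of 9 lower and 3 higher. Lrrc1, which encodes the Scribble relative Lano, fell (-0.88 ± 0.09, adjusted p = 0.00302), and Dlg4 rose (0.93 ± 0.13, adjusted p = 0.00663). Dlg5, not called, held 38.6% and 50.8% of the per-length level of the Discs large genes in Vp16-TRF1ΔN cells at 24 h and 0 h, and 40.7% and 53.3% in TRF1ΔN cells, whereas Dlg1 held 55.6% and 44.9%, and 52.9% and 42.3%. Per exon length, Dlg1 was thus the highest of this family in the treated libraries and Dlg5 in the untreated ones. This order depends on the length, which takes all annotated exons of a gene merged. In counts Dlg1 was above Dlg5 in the untreated libraries too, with 4534 against 4059 in Vp16-TRF1ΔN cells and 4842 against 4821 in TRF1ΔN cells.

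All 4 tested genes of the angulin and tricellular junction list, Lsr among them, fell, where 25.4% of all genes did. Marveld2, which encodes tricellulin, the protein that angulins recruit, had a log2 change of -2.18 ± 0.24 (adjusted p = 0.00382, edgeR quasi-likelihood test), Ildr2, which encodes angulin-3, one of -1.38 ± 0.21, and Ocln, which encodes occludin, one of -0.93 ± 0.16. Their falls were smaller in Vp16-TRF1ΔN cells. The untested response difference was 0.83 (0.76 to 0.91) for Ildr2, 0.73 (0.20 to 1.30) for Marveld2 and 0.61 (0.49 to 0.74) for Ocln. For Lsr it was -0.22, the other way. Among Par-1 and Lkb1 kinase genes 4 of 8 rose, led by Mark4 (0.94 ± 0.09) and Strada (0.67 ± 0.09), and 2 fell, the scaffold genes Cab39l (-0.64 ± 0.07) and Cab39 (-0.46 ± 0.07). In the list of apical membrane and trafficking genes 8 of 13 fell and 3 rose, against 25.4% and 23.1% of all genes. Ezr, which encodes the microvillar linker ezrin (-1.47 ± 0.20), and its partner Nherf1 (-1.12 ± 0.11) were lowest, and Rab11fip5, an effector of Rab11 (2.95 ± 0.08, adjusted p = 0.000858), and Amotl2, an angiomotin relative (1.09 ± 0.10), were highest.

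**Figure D5:**
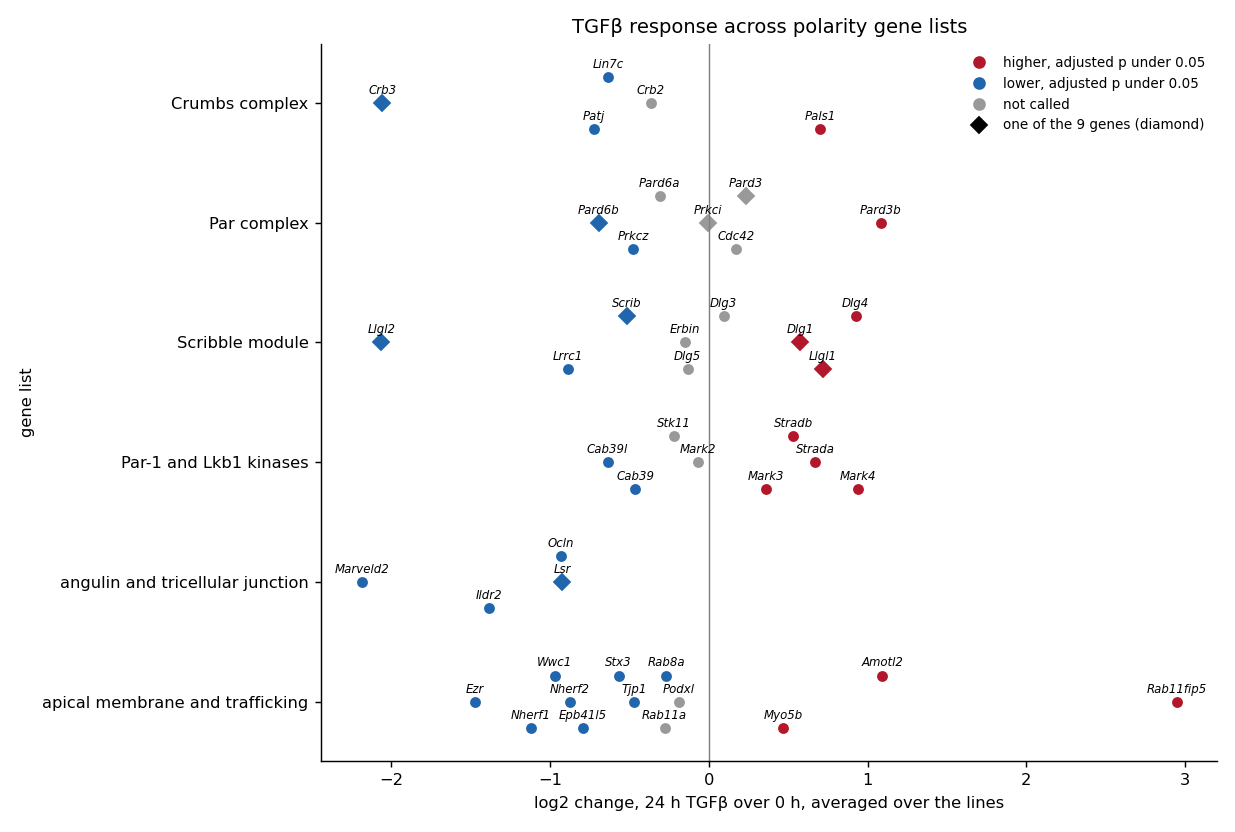
TGFβ log2 change averaged over the lines (horizontal axis) of the tested genes in 6 lists of polarity genes (rows; height within a row only separates the names). Red points were called higher and blue points lower at an adjusted p under 0.05, grey points were not called, and diamonds are the 9 genes. Crb3, Llgl2 and Marveld2 lie below -2, and Rab11fip5 stands at 2.95.

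In level, the 9 genes spanned a wide range. Per kilobase of exon, Lsr (19.0 to 39.8 CPM over the 4 libraries) and Prkci (27.5 to 30.9) had the highest mean levels, followed by Llgl1 (13.8 to 26.0), Scrib (13.7 to 23.1), Dlg1 (9.47 to 14.7), Llgl2 (2.30 to 10.1), Pard3 (4.53 to 5.68), Crb3 (1.09 to 7.53) and Pard6b (2.77 to 5.81). The ranges of Prkci and Llgl1 did not overlap, and those of all other neighbours in this order did. Lsr ranked above Prkci in both untreated libraries and below Prkci and Llgl1 in both treated ones.

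The genes whose profile over the 4 libraries was most like that of the lowest and the highest of the 9 were found by the Euclidean distance between mean-centred log2(CPM + 1) values, among 9717 genes that averaged 5 CPM or more. For Llgl2 these were Dscc1 (distance 0.05), Dtl (0.09) and Wdr76 (0.10), and for Llgl1 they were Tln1, Pla2g12a and Rai1 (0.02 to 0.03). With 4 libraries such a profile holds little more than the treatment and the line. Among the 9 genes, Pard3 and Prkci were the closest pair (0.30), followed by Llgl1 and Dlg1 (0.32).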

How the data were processed

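RNA of 4 libraries, 1 per group, was sequenced. Per the submitters' processing notes, FastQC, STAR, HTSeq and DESeq2 were used with build mm10; for versions, annotation release and strand setting: not given in the sources used here. Deposited raw counts per gene from the authors were tested. The authors' normalized log2 values were recomputed as log2 of 1 plus the count over DESeq2's size factor (largest relative difference 3.91e-14), and served as an alternative. Library sizes and tests leave out the 4 construct rows.

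Libraries were scaled by TMM (edgeR 4.0.16, R 4.3.3), and filterByExpr left 14305 of 21971 genes. In the additive fit the prior had 3.39 degrees of freedom. All tests were two-sided with p adjusted across every gene tested, and each SE was the absolute log2 change over the root of F. Separate cultures are not stated in the labels. In the additive fit each p rests on the difference between the responses of the lines, together with the prior from all genes tested. It does not measure spread between replicate cultures or technical spread, which 1 library per group cannot give.

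Coordinates and exon lengths are from GENCODE M21 (GRCm38), and promoters from RefSeq. The exon length of a gene is that of all its annotated exons merged. Alternatives were DESeq2 1.42.0, its size factors, no filter, mitochondrial genes left out, a single term, a prior count of 0.5 and the authors' values. All 9 genes are named; of the lists, at most 4 genes each, largest called changes first, with paralogs and partners; likeness names 3 genes for the lowest and the highest. Members and lists were chosen with earlier results of these data known.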

Additional observations from a re-analysis of the deposited data

Results flagged for a closer look

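Responses of opposite sign in the groups marked 4 results, and none of these differences was tested, since each group has 1 library. The TGFβ response of Prkci was 0.071 on the log2 scale in Vp16-TRF1ΔN cells (95% counting interval 0.02 to 0.12) and -0.077 in TRF1ΔN cells (-0.13 to -0.03), so both values were small.

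The difference between the lines, Vp16-TRF1ΔN over TRF1ΔN, changed sign with time for 3 genes. For Crb3 it was 1.31 after 24 h of TGFβ and -0.02 at 0 h, where the interval of -0.20 to 0.15 includes 0. For Llgl2 it was 0.048 at 24 h, with an interval of -0.15 to 0.24 that includes 0, and -0.12 at 0 h. For Pard3 it was -0.094 at 24 h and 0.088 at 0 h, and neither interval includes 0. Of these 4 results, the 24 h value of Crb3 was the one past 2-fold.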

How the results depend on the processing

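The 5 falls and 2 rises with TGFβ among the 9 genes were the same under DESeq2's size factors, without a filter, under DESeq2's Wald test and without mitochondrially encoded genes. With TGFβ as the only term there were 4 falls and 2 rises. Leaving out each library in turn in that fit gave 2 to 5 members lower and 0 to 3 higher. Over all genes it gave 1228 to 3618 lower and 1013 to 3323 higher, with 1352 lower and 1173 higher without the Vp16-TRF1ΔN library at 0 h. The log2 change of Prkci was then -0.091 to 0.066, with 0.0092 without the Vp16-TRF1ΔN library at 0 h.

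Between the lines, no gene was called in the additive edgeR quasi-likelihood fit (1779 genes at an unadjusted p under 0.05). Without a filter on low counts 28 genes were called higher and 81 lower, DESeq2's Wald test gave 12 and 34, and without mitochondrially encoded genes 4 were called lower; none was one of the 9. With the line as the only term, leaving out a library makes the lines unequal in treatment by construction, and the sign turned for 8 of the 9 genes, with no call and an adjusted p of at least 0.9999. The log2 differences of turned sign were -0.64 and -0.58 for Crb3, 0.58 and 1.35 for Llgl2, 0.31 and 0.35 for Lsr, 0.025 and 0.026 for Scrib, -0.27 and -0.20 for Dlg1, 0.037 and 0.24 for Llgl1, 0.060 and 0.15 for Pard3 and -0.11 for Pard6b.

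Ratios within a line, between lines at a time and between responses stayed within their counting intervals for all 9 genes with DESeq2's size factors, a prior count of 0.5, the authors' normalized values and mitochondrially encoded genes left out. No paired analysis was possible because the labels give no replicate numbers and each group has 1 library; the line term of the additive fit already compares the times within each line. Depth limits Crb3 most, with 72 counts in treated TRF1ΔN cells.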
